A study of Sus scrofa with 20 samples.

Results

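Gene expression in the uterus of 5 sows inseminated with the rich and intermediate fractions of the boar ejaculate (FR2) was compared with that of 5 sows left without insemination (control). These are 10 of the 20 libraries of the series, 1 per sow. The comparison ran over the rows of the gene table that carry a gene name, 30345 of 30369, of which 17745 had enough counts to be tested. All sows were Large White by Landrace crosses labelled wild type, weaned and assigned at random to their group, and all were killed 6 days after estrus began. FR2 sows received semen of 3 Pietrain boars through post-cervical insemination at the start of estrus and again each day while they stood for the boar. The phase before the sperm and the gel had been removed, and the poor fraction that follows the intermediate one was not collected for this group. FR1 sows, given the rich fraction alone, and FR3 sows, given the rich, intermediate and poor fractions, enter below only where FR2 is set against them. Sow ages, the layers of the uterine wall sampled and any sham procedure in controls are not stated by the labels. The labels do not name the sows that held embryos, so contact with semen and early pregnancy cannot be told apart in what follows.

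The uterine wall is built of a luminal and glandular epithelium, a stroma of fibroblasts, vessels and leukocytes, and the smooth muscle of the myometrium. In the days after estrus progesterone from the new corpora lutea prepares the endometrium, and its glands turn to secreting histotroph, the mixture of proteins and nutrients that feeds the embryos before they attach. Seminal plasma and sperm are themselves known to act on this tissue, where they draw in leukocytes and change the output of cytokines and growth factors.

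Total counts, in units of 1e6, ran from 39.3 to 47.3 in the FR2 libraries, from 39.9 to 50.9 in control and from 33.0 to 62.9 over the whole series. The FR2 libraries were close to one another, with a mean pairwise Spearman correlation across genes of 0.971, against 0.902 in control. FR2_3 was the least alike, at a mean of 0.957 to its 4 FR2 partners. The standard deviation of log2 CPM (counts per 1e6 counts of a library, scaled by TMM factors) between sows had a median over genes of 0.322 in FR2 and 0.691 in control, and control varied more than FR2 in 15165 of 17745 genes (85.5%). Every pair of the 10 libraries differed beyond counting noise (the smallest mean chi-square over genes was 46.5), so none was counted as a repeat. Libraries are named by group and column number, since the columns do not carry the sow's number.

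The uterus of the FR2 sows differed from control in both directions, with more falls than rises in the edgeR test defined below. By limma-voom on the same 20 libraries 389 genes rose and 316 fell. KRT18, FXYD3 and PSMB10, a keratin, a sodium pump regulator and an immunoproteasome subunit, were lower in all 5 FR2 libraries than in any control, and FREM1, SNCAIP and GLI1, a matrix protein, a synuclein partner and a hedgehog target, were higher in all 5. All called members of the epithelial, histotroph, antigen presentation, mucosal defence and chaperone lists below were lower, and all called members of the fibroblast, hedgehog and collagen lists were higher. A gene is written as called where edgeR's quasi-likelihood test, fitted over all 20 libraries, gave a Benjamini-Hochberg adjusted p below 0.05. There were 985 such genes, 5.55% of those tested. Of these, 278 rose (1.57% of genes tested) and 707 fell (3.98% of genes tested). The median log2 fold change, always FR2 minus control, was 1.37 among the genes that rose and -1.29 among those that fell, and -0.04 over all genes tested. A change of at least 1 on that scale was reached by 200 of the risen genes and 437 of the fallen ones (1.13% and 2.46% of genes tested). At least 3 was reached by 26 and 145.

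These calls rest on the spread estimated from all 4 groups. When only the 10 FR2 and control libraries were fitted, edgeR called 1 gene, SNCAIP (adjusted p = 0.0140), and the next smallest adjusted p was 0.0594. In that fit 966 of the 985 genes could be tested, all of them kept their direction with an unadjusted p below 0.05, and 449 had an adjusted p below 0.10. DESeq2 on the same 10 libraries called 1482 genes, whereas limma-voom called 2 and an exact rank-sum test 0, its smallest adjusted p being 0.157 with 2203 genes at an unadjusted p below 0.05. With all 20 libraries limma-voom called 705 genes, 55.2% of them higher against 28.2% by edgeR. By edgeR, every rise or fall named below other than that of SNCAIP therefore rests on the fit of 20 libraries. Every gene list below held 0 calls in the edgeR fit of 10. Of the 985 genes, DESeq2 on the 10 libraries called 887 and limma-voom 2.

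The libraries of both groups did not overlap in 895 genes (5.04% of those tested), 445 with FR2 above every control (2.51%) and 450 with FR2 below (2.54%). Among called genes this held for 195 of the 278 that rose (70.1%) and 287 of the 707 that fell (40.6%). These are 1.1% and 1.62% of all genes tested. In another 301 of the fallen genes 4 of 5 controls lay above every FR2 library, and in 24 (3.39% of 707) at most 2 did. CONTROL_3 was the highest control in 326 of the fallen genes (46.1%) and the lowest in 119 of the risen ones (42.8%). Leaving out CONTROL_3 lowered the count of calls to 425, and leaving out 1 FR2 library lowered it to 309 without FR2_1, 439 without FR2_2, 510 without FR2_3, 376 without FR2_4 and 434 without FR2_5. Without CONTROL_5 it was 1881.

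**Figure D1:**
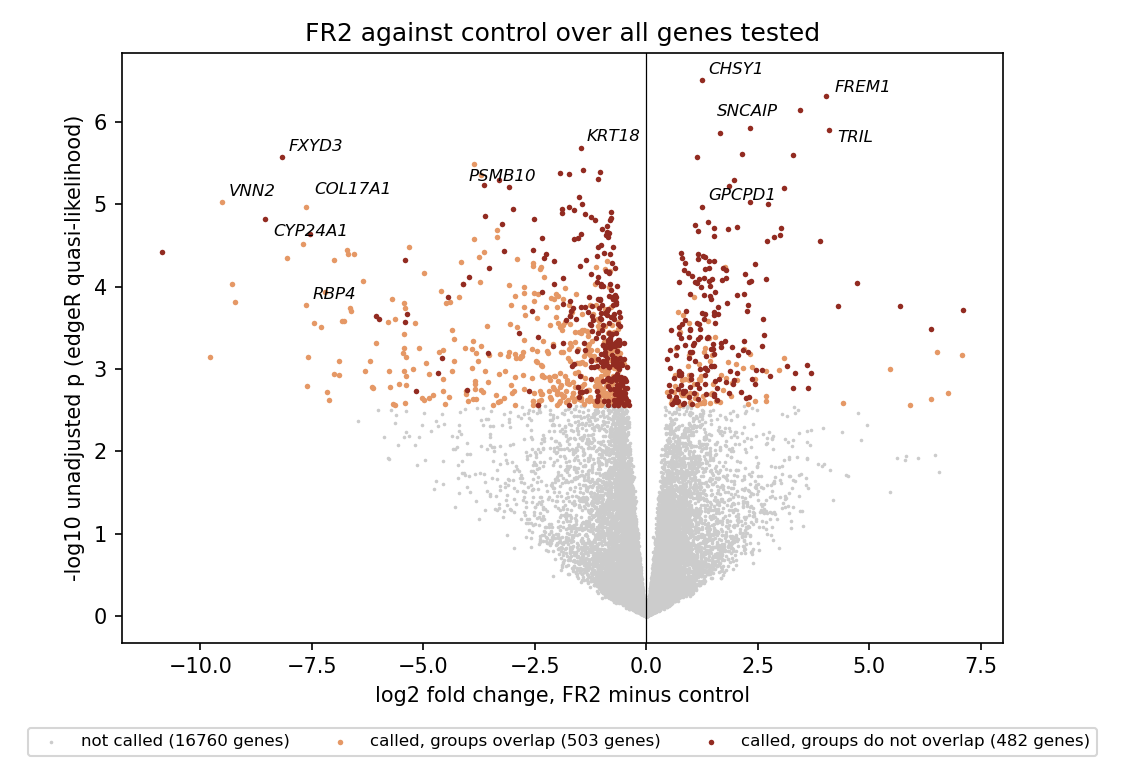
Each point is 1 of the 17745 genes tested, with the log2 fold change of FR2 minus control on the x axis and the -log10 unadjusted p of edgeR's quasi-likelihood test on the y axis. Dark points are the 482 called genes whose FR2 and control libraries do not overlap and orange points the 503 called genes whose libraries do. Among the called genes 145 lie at or below -3 on the x axis and 26 at or above 3.

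Of the rises without overlap between groups, 10 among those of smallest p are given first. FREM1, an extracellular matrix protein that anchors epithelium to the tissue beneath it, was at 0.168, 1.1, 0.298, 0.273 and 0.949 CPM in CONTROL_1 to CONTROL_5 and at 12.8, 8.83, 7.77, 8.82 and 7.71 CPM in FR2_1 to FR2_5. Every FR2 library stood above every control, FR2_1 highest, and FREM1 rose by 4.04 ± 0.55 on the log2 scale (SE, edgeR adjusted p = 0.00397). SNCAIP, which encodes the synuclein-binding protein synphilin-1, was at 1.45, 2.04, 1.19, 2.60 and 2.52 CPM in control and 18.0, 17.2, 28.9, 29.6 and 14.2 CPM in FR2. It rose by 3.46 ± 0.48 (adjusted p = 0.00397), with FR2_3 and FR2_4 highest and no overlap. TRIL, an accessory protein of Toll-like receptors, went from 1.65, 2.53, 0.183, 0.671 and 4.28 CPM to 24.0, 35.1, 33.1, 43.8 and 23.0 CPM, a rise of 4.09 ± 0.59 (adjusted p = 0.00397). Its FR2 libraries were again all above the controls, of which CONTROL_3 was the lowest.

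CHSY1, an enzyme that builds chondroitin sulfate chains, had the smallest p of all genes. It stood at 31.2, 17.6, 20.3, 25.4 and 24.2 CPM in control and at 57.4, 59.3, 58.4, 65.2 and 42.6 CPM in FR2, and rose by 1.25 ± 0.16 (edgeR adjusted p = 0.00397). The lowest FR2 library, FR2_5, was still above the highest control, CONTROL_1. ACPP, the prostatic type of acid phosphatase, rose by 3.29 ± 0.50 from 0.147 to 2.55 CPM to 7.73 to 14.7 CPM. Further rises with no overlap were those of DCX, a microtubule-binding protein, by 2.14 ± 0.33 and of PAIP2B, an inhibitor of translation, by 1.96 ± 0.31. HEYL, a target of Notch signalling, PRR16 and the ubiquitin ligase SHPRH rose by 1.85 ± 0.30, 1.65 ± 0.24 and 1.15 ± 0.18. All 10 of these risen genes were called in each run that left out 1 of the 10 libraries. They were chosen for small p and no overlap in these same libraries, so such runs give no separate support.

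Among the falls, KRT18, a keratin of simple epithelia, was at 379.6, 491, 318, 251 and 302 CPM in control and at 114, 153, 122, 142 and 99.1 CPM in FR2, a log2 fold change of -1.47 ± 0.22 (edgeR adjusted p = 0.00432). CONTROL_2 was the highest and no FR2 library reached the lowest control. FXYD3, a small membrane protein that regulates the sodium pump, was at 11.0, 46.3, 256, 42.2 and 2.52 CPM in control and at 0.0868, 0.264, 0.115, 0.243 and 0.518 CPM in FR2 (-8.17 ± 1.25, adjusted p = 0.00432). Its controls spanned a wide range with CONTROL_3 far above the rest, while FR2 was near 0 throughout. PSMB10, a catalytic subunit of the immunoproteasome, stood at 40.5, 26.7, 75.3, 99.3 and 51.6 CPM against 12.0, 17.7, 15.2, 15.3 and 16.8 CPM (-1.93 ± 0.31, adjusted p = 0.0045), with CONTROL_4 highest and a narrow FR2 group beneath all controls.

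ELF3, a transcription factor of epithelia, fell from 35.5, 88.9, 177, 218 and 11.3 CPM to 8.81, 7.72, 10.1, 9.06 and 6.71 CPM (-3.65 ± 0.59, edgeR adjusted p = 0.00472), and CONTROL_5 lay just above the FR2 libraries. The receptor tyrosine kinase MST1R was at 7.78 to 148 CPM in control and 5.80 to 6.40 CPM in FR2 (-3.08 ± 0.50), and at -2.18 ± 0.34 without CONTROL_3, still called. CFD, the complement protease factor D, fell from 68.8 to 849.8 CPM to 24.4 to 43.7 CPM (-3.31 ± 0.53). Smaller falls, each without overlap, were those of TAGLN2, an actin-binding protein (-1.5 ± 0.25), S100A1, a calcium-binding protein (-1.74 ± 0.28), and BZW2 (-1.44 ± 0.24). PRR5, a partner of the TOR kinase complex, ITPK1, an inositol phosphate kinase, and RNH1, the ribonuclease inhibitor, fell at -1.42 ± 0.22, -1.09 ± 0.17 and -1.03 ± 0.16. These 12 genes, chosen from the same libraries in the same way, were also called whichever of the 10 libraries was left out.

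**Figure D2:**
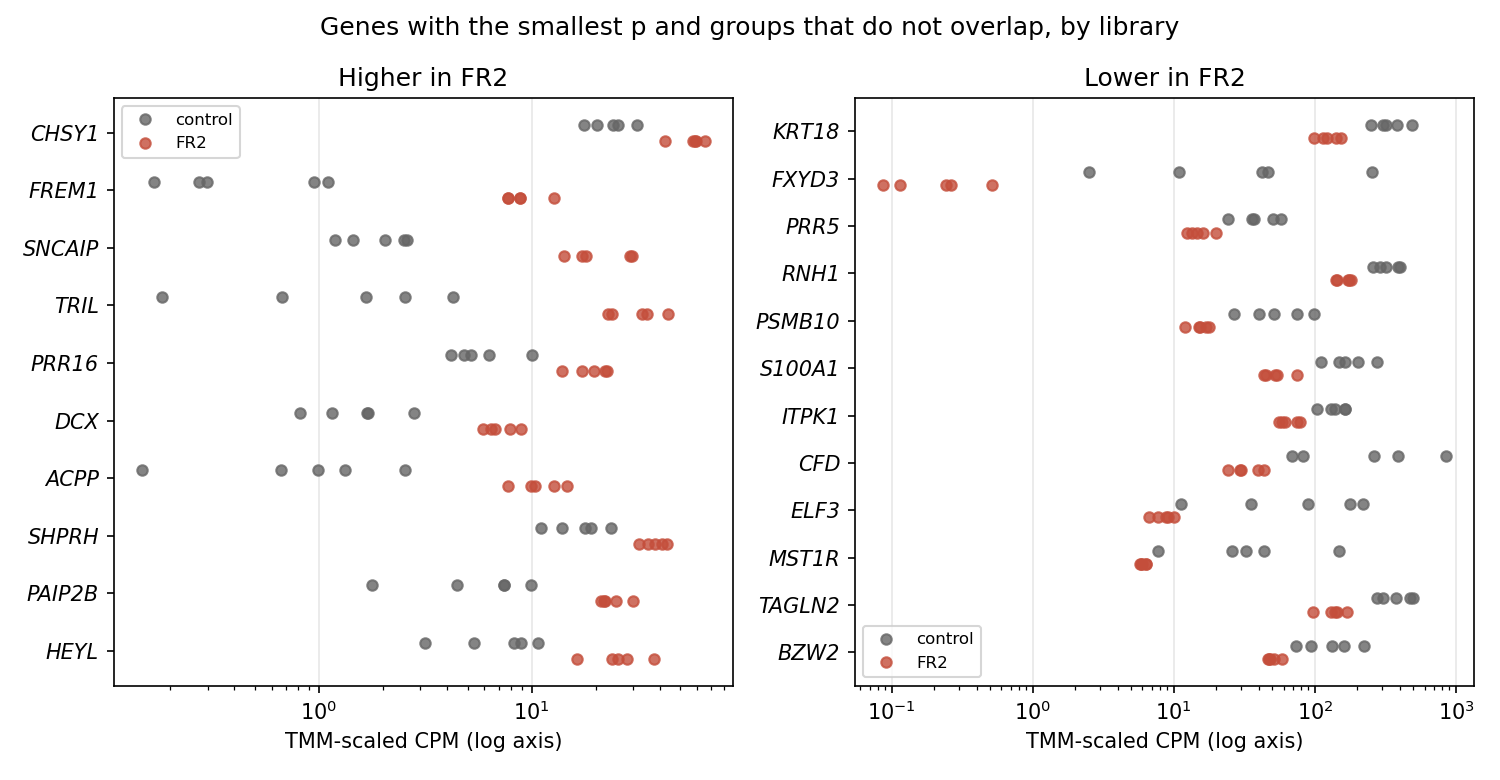
Each point is 1 library, with TMM-scaled CPM on a logarithmic x axis, for 10 risen (left) and 12 fallen (right) genes among those of smallest p whose groups do not overlap; grey is control and red FR2. No FR2 point lies within the control range of its gene, and the controls of CFD, ELF3 and MST1R span a wider range than FR2.

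Markers of tissue compartments were read next, as sets of 5 to 19 tested genes with the mean log2 CPM of each library. Every list count below is to be read beside the shares over all genes tested, 5.55% called, 1.57% higher and 3.98% lower. The tissue is bulk, so fewer cells of a type and less RNA per cell cannot be told apart in any value given here. Of 19 uterine epithelium markers 7 fell and 0 rose, with a median log2 fold change of -0.84 against -0.04 over all genes tested. Their library means ran from 7.15 to 7.61 log2 CPM in control and 6.37 to 6.79 in FR2, without overlap. Beside KRT18 and ELF3, the adhesion molecule EPCAM was at 253 to 553 CPM in control and 146 to 206 CPM in FR2 (-0.93 ± 0.22, edgeR adjusted p = 0.0233), and the tight junction gene CLDN7 at 222 to 374 and 121 to 155 CPM (-1.04 ± 0.22, adjusted p = 0.0124). The surface mucin MUC1 was at 3.00, 55.0, 70.8, 89.0 and 17.4 CPM in control and 2.21, 5.04, 4.31, 3.45 and 2.57 CPM in FR2 (-3.74 ± 0.71, adjusted p = 0.0082). For MUC1 the groups overlapped through CONTROL_1 alone. The count of fallen epithelial markers was 4 without FR2_1, FR2_2 or FR2_5 and 2 without CONTROL_2, CONTROL_3 and CONTROL_4 together. It was 4 by limma-voom and 10 by DESeq2 on the 20 libraries.

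Stromal fibroblast markers went the other way. Of 14, 2 rose and 0 fell, at a median of 0.90, and library means were 5.82 to 7.37 log2 CPM in control and 7.64 to 8.19 in FR2. PDGFRA, a growth factor receptor of fibroblasts, was at 13.9, 23.2, 13.9, 14.6 and 19.3 CPM in control and 73.9, 119, 34.8, 67.8 and 52.2 CPM in FR2, and rose by 2.04 ± 0.36 (edgeR adjusted p = 0.00653). Its groups did not overlap, FR2_2 was highest and FR2_3 lowest of FR2. LUM, a proteoglycan that binds collagen, was at 75.1, 159, 67.3, 131 and 254 CPM and 430.3, 417, 341, 422 and 470.3 CPM and rose by 1.60 ± 0.35 (adjusted p = 0.0136), again without overlap. Without CONTROL_4, 4 of the 14 were called higher.

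The muscle, vessel and leukocyte markers gave few calls. Smooth muscle held 0 of 13, with library means of 6.20 to 10.7 log2 CPM in control and 8.01 to 9.89 in FR2, and CONTROL_1 was the lowest of control and FR2_4 of FR2. DES, the muscle filament desmin, was at 151, 6607, 6495, 3537 and 1984 CPM in control and 2277, 1948, 2065, 531 and 2976 CPM in FR2 (-0.94 ± 0.71, edgeR adjusted p = 0.479). With the muscle mean of each library as a covariate 1498 genes were called, 589 higher (39.3%) and 909 lower. Endothelium, T and NK cell, B and plasma cell and macrophage lists held 0 calls among 12, 14, 8 and 12 tested genes, at medians of 0.27, -0.84, 0.46 and -0.36. Without CONTROL_3 or CONTROL_5 the B and plasma cell list held 1 rise, and the macrophage list held 1 rise without CONTROL_4 and 1 fall without CONTROL_2. JCHAIN, which joins secreted antibodies, was at 5.70 to 31.7 CPM in control and 16.9 to 116 CPM in FR2 (2.03 ± 0.61, adjusted p = 0.0574). Of 5 neutrophil markers MMP8, a collagenase, fell (-5.44 ± 1.42, adjusted p = 0.0315), and it was not called without CONTROL_2 or any 1 FR2 library (-5.76 to -4.38 over the 10 runs). Here and below such a bracket gives the lowest and highest value over all 10 runs without 1 library, called or not. The neutrophil list held 2 falls without CONTROL_1 or CONTROL_5.

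Of 5 mast cell markers MS4A2, a chain of the IgE receptor, rose, at 0.0419, 0.102, 0.367, 0.629 and 0.949 CPM in control and 2.39, 1.49, 1.78, 1.17 and 2.33 CPM in FR2 (2.12 ± 0.59, edgeR adjusted p = 0.0433). The groups did not overlap, yet the level was low, and the call was lost without CONTROL_2, CONTROL_3 or any 1 FR2 library (1.83 to 2.65). The library means of this list, 2.26 to 2.88 log2 CPM in control and 3.11 to 4.31 in FR2, did not overlap either.

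Genes that fasten epithelium to its base moved in both directions. Of 18 basement membrane and hemidesmosome genes 3 rose and 3 fell, at a median of -0.12. COL17A1, a collagen of hemidesmosomes, was at 21.7, 32.2, 295, 1060.4 and 1.81 CPM in control and 1.45, 1.22, 2.97, 0.559 and 0.817 CPM in FR2 (-7.64 ± 1.30, edgeR adjusted p = 0.00592). CONTROL_3 and CONTROL_4 were far above the other controls, and CONTROL_5 lay within FR2. LAMB3, a chain of the laminin that binds hemidesmosomes, fell at -4.50 ± 0.96. On the side of the rises stood FREM1, NPNT, an integrin ligand (1.46 ± 0.37), and NID1, which links laminin to collagen (1.30 ± 0.37, adjusted p = 0.0477). Only FREM1 of these 3 rises was called without CONTROL_3, CONTROL_4, FR2_1, FR2_3, FR2_4 or FR2_5.

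Of 21 junction, keratin and adhesion genes 3 fell and 0 rose, at a median of -0.44. MPZL2, an adhesion molecule of epithelia, was at 30.6, 24.0, 50.2, 37.2 and 3.20 CPM in control and 1.32, 1.63, 4.19, 2.28 and 1.61 CPM in FR2 (-3.71 ± 0.59, edgeR adjusted p = 0.0045). CONTROL_5 lay among the FR2 libraries and the other controls far above them. PKP3, a plaque protein of desmosomes, fell at -1.22 ± 0.28 without overlap, and was not called without FR2_1. PKP1 was called at -7.15 ± 1.99 on the strength of 176 CPM in CONTROL_1, and was at -2.50 ± 1.46 without CONTROL_1, not called. With any 1 FR2 library left out PKP1 was not called either. Over the 10 runs without 1 library it was at -7.47 to -2.50, the latter without CONTROL_1.

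In the list of the sodium pump and ion channels 4 of 23 genes fell and 2 rose, at a median of -0.47. Beside FXYD3, its relative FXYD2 fell at -5.63 ± 1.26 and the pump's beta chain ATP1B3 at -0.74 ± 0.18. AQP3, a channel for water and glycerol, was at 27.1, 23.2, 2.75, 55.2 and 301 CPM in control and 760.0, 657, 571, 1171 and 513 CPM in FR2 and rose by 3.16 ± 0.81 (edgeR adjusted p = 0.029). Its groups did not overlap, CONTROL_3 was the lowest control and CONTROL_5 the highest. AQP3 was not called without CONTROL_4, FR2_1, FR2_2 or FR2_4 (2.84 to 4.74), FXYD2 not without CONTROL_3 or FR2_1 (-6.74 to -3.87), and ATP1B3 not without FR2_1, FR2_3, FR2_4 or FR2_5 (-0.85 to -0.63). The smallest change of ATP1B3, -0.63, came without CONTROL_2 and was still called. Epithelial marker means were lower in FR2 beside these genes, and their part in the values was not tested.

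Of 18 genes of steroid and oxytocin signalling 0 were called, at a median of -0.16. The member of smallest p was OXT, the oxytocin ligand, at 1.61, 1.18, 39.8, 78.6 and 3.45 CPM in control and 0, 0.528, 0, 1.17 and 1.18 CPM in FR2 (-5.44 ± 1.79, edgeR adjusted p = 0.0783). All FR2 libraries lay below every control, FR2_5 and CONTROL_2 equal to 3 digits, and the control mean was set by CONTROL_3 and CONTROL_4. Without CONTROL_5 the list held 1 rise and 1 fall. ESR1, the oestrogen receptor, was at 98.2 to 379.8 CPM in control and 229 to 435 CPM in FR2 (0.44 ± 0.28, edgeR adjusted p = 0.376). PGR, the progesterone receptor, was at 80.5, 16.7, 10.0, 100 and 21.7 CPM in control and 31.1, 29.4, 51.1, 27.2 and 28.9 CPM in FR2 (-0.45 ± 0.46, adjusted p = 0.622). CONTROL_1 and CONTROL_4 were high, the FR2 libraries lay between the extremes, and the sign turned to 0.09 without CONTROL_4. OXTR, the oxytocin receptor, was at 2.01 to 53.7 CPM in control and 1.14 to 17.7 CPM in FR2 (-0.48 ± 0.84, adjusted p = 0.794), and at 0.93 without CONTROL_2.

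Of 30 receptivity and histotroph genes 8 fell and 0 rose, at a median of -0.91 against -0.04 over all genes. In all 8 the groups overlapped, with some controls as low as FR2 and others much higher. By limma-voom on the 20 libraries 0 of the 30 were called, and by DESeq2 11 were lower and 1 higher. SPP1, a secreted phosphoprotein that binds integrins at embryo attachment, was at 3.67, 11.6, 1354, 749 and 7.32 CPM in control and 4.69, 4.58, 3.77, 3.09 and 4.10 CPM in FR2 (-6.71 ± 1.26, edgeR adjusted p = 0.00799). CONTROL_3 and CONTROL_4 were far above all other libraries, and CONTROL_1 lay within FR2. RBP4, the retinol carrier of uterine secretions, was at 4.27, 2210.5, 13053, 30.9 and 69.9 CPM in control and 4.84, 25.6, 12.2, 28.3 and 7.07 CPM in FR2 (-7.62 ± 1.64, adjusted p = 0.0134). Here CONTROL_2 and CONTROL_3 were high and CONTROL_1 was below every FR2 library. Without CONTROL_3 RBP4 was at -5.22 ± 1.27, still called.

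ACP5, or uteroferrin, an iron-binding acid phosphatase of the uterine glands, was at 11.6, 632, 2414, 66.1 and 29.3 CPM in control and 15.0, 22.1, 5.38, 15.8 and 15.0 CPM in FR2 (-5.43 ± 1.16, edgeR adjusted p = 0.0132), and at -3.67 ± 0.90 without CONTROL_3, still called. FGF7, a growth factor for epithelia, was at 0.272, 398, 447, 3.44 and 1.09 CPM and 1.52, 2.02, 1.76, 1.48 and 1.83 CPM (-6.62 ± 1.45, adjusted p = 0.0144), high in CONTROL_2 and CONTROL_3 alone, and CONTROL_1 and CONTROL_5 lay below every FR2 library. IGFBP2, which binds insulin-like growth factors, was at 219.5, 6.52, 308, 788 and 9.49 CPM and 10.1, 10.2, 19.3, 10.9 and 21.7 CPM (-4.20 ± 0.88), with CONTROL_2 and CONTROL_5 under all FR2 libraries. LIF, a cytokine of implantation, was at 0.796, 14.1, 76.4, 6.27 and 0.996 CPM and 0.239, 0.504, 1.93, 0.292 and 1.16 CPM (-4.57 ± 1.11, adjusted p = 0.0238), and was not called without CONTROL_3, FR2_1, FR2_2, FR2_4 or FR2_5 (-5.15 to -2.71). STC1, a secreted hormone of the glands, was at 0.377, 22.1, 143, 0.587 and 0.0232 CPM and 1.45, 2.11, 0.249, 2.26 and 0.458 CPM and did not pass (-4.67 ± 1.47, adjusted p = 0.0675). Of the 30 genes 5 were called lower without CONTROL_3, FR2_1, FR2_2, FR2_4 or FR2_5 in turn. Without CONTROL_2, CONTROL_3 and CONTROL_4 together 1 was, and FGF7 was at 1.35 and STC1 at 2.68.

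**Figure D3:**
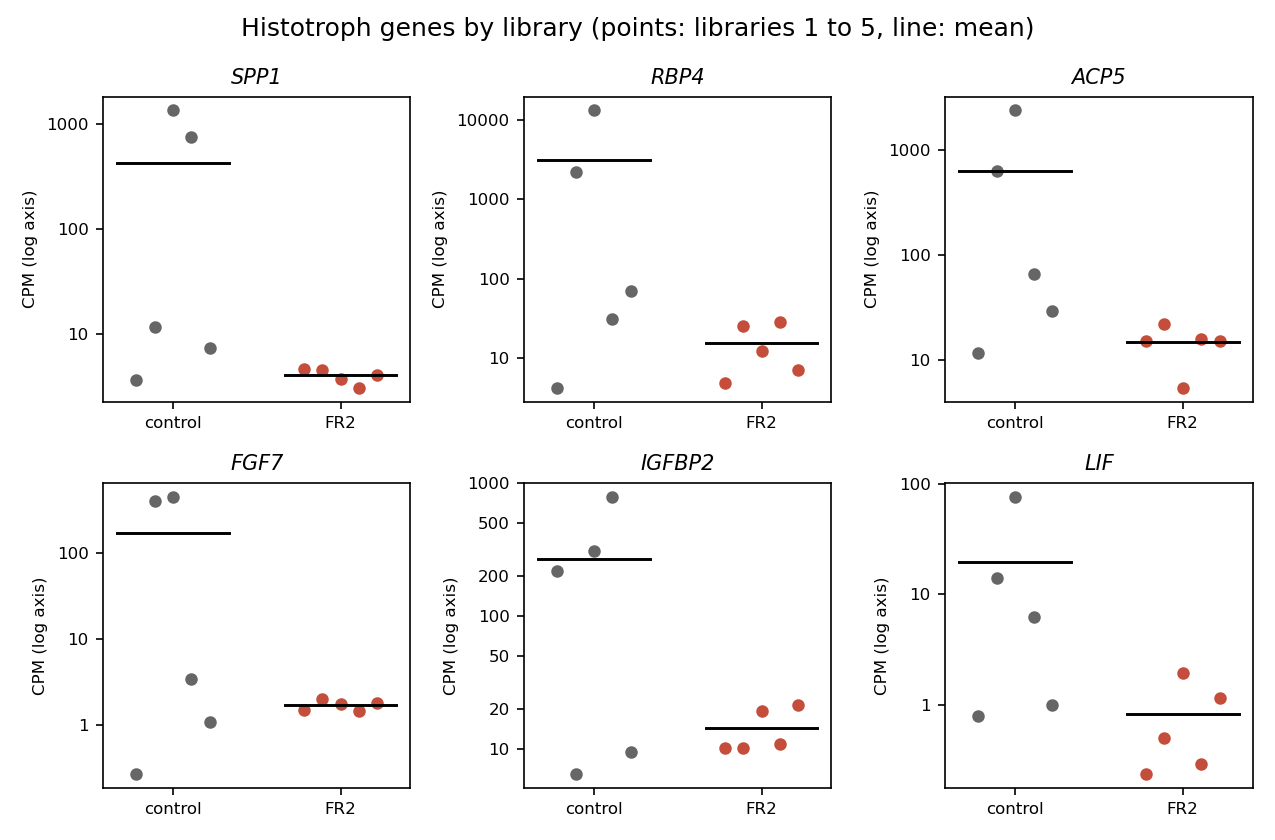
Levels of 6 histotroph and receptivity genes in each library, as TMM-scaled CPM on logarithmic y axes, with control in grey, FR2 in red and a line at the group mean. In SPP1, RBP4, ACP5 and FGF7 the control mean is set by 2 high libraries, while the 5 FR2 libraries lie near the level of the lower controls.

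Retinoid, vitamin D and prostaglandin genes gave calls in a few members. Of 18 genes that handle retinoids 2 were called (11.1%, against 5.55% of all genes tested). RBP4 fell and ALDH1A3, an enzyme that makes retinoic acid, rose, from 48.0 to 263 CPM to 237 to 751 CPM (1.65 ± 0.48, edgeR adjusted p = 0.0479). ALDH1A3 was not called without CONTROL_2, CONTROL_3, CONTROL_4 or any 1 FR2 library (1.42 to 1.94). Of 12 vitamin D and calcium genes 3 fell, at a median of -1.0. With all 20 libraries limma-voom called 0 of the 12, and DESeq2 called 3 lower and 1 higher. CYP24A1, which inactivates vitamin D, was at 36.1, 12.8, 66.3, 45.0 and 0.278 CPM in control and 0, 0.168, 0, 0.267 and 0 CPM in FR2 (-8.56 ± 1.49, adjusted p = 0.00615). The groups did not overlap, but CONTROL_5 was close to the highest FR2 library, and with so few FR2 counts the fitted value is only approximate. The calcium channels TRPV5 and TRPV6 were called at -4.43 ± 1.25 and -5.02 ± 1.43 through 34.2 and 5273 CPM in CONTROL_3, and were at -1.84 ± 0.97 and -1.09 ± 0.85 without it, not called. Neither was called when any 1 FR2 library was left out.

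Of 21 prostaglandin genes 3 were called (14.3%, against 5.55% of all genes tested). PTGES2, a prostaglandin E synthase, fell at -1.11 ± 0.21, from 23.8 to 56.4 CPM to 15.5 to 23.3 CPM, and ABCC4, an exporter of prostaglandins, at -2.25 ± 0.49. SLCO3A1, an organic anion transporter with prostaglandin substrates, rose by 1.51 ± 0.27 from 17.9 to 41.1 CPM to 49.3 to 99.4 CPM (edgeR adjusted p = 0.00653). All 3 were called whichever library was left out. PTGS2, the inducible cyclooxygenase, was at 19.6, 341, 414, 7.71 and 7.36 CPM in control and 27.5, 7.65, 0, 4.08 and 5.5 CPM in FR2 and did not pass (-4.14 ± 1.61, adjusted p = 0.134).

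Of 13 tested S100 genes, whose products bind calcium, 4 fell and 0 rose, at a median of -0.83, and library means were 5.18 to 5.67 log2 CPM in control and 4.37 to 4.94 in FR2. S100A2 was at 294, 356, 332, 337 and 21.3 CPM in control and 17.8, 20.6, 11.9, 12.2 and 29.5 CPM in FR2 (-3.86 ± 0.60, edgeR adjusted p = 0.0045). CONTROL_5 stood alone within the FR2 range. S100A6 and S100A13 fell at -1.55 ± 0.38 and -1.1 ± 0.28, both without overlap. S100A6 was not called without FR2_1, FR2_3, FR2_4 or FR2_5 (-1.66 to -1.15) nor S100A13 without CONTROL_3 or any 1 FR2 library (-1.24 to -0.78).

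Signalling genes were read as ligands, receptors and targets. In the hedgehog pathway, by which uterine epithelium signals to stroma, 3 of 15 tested genes rose and 0 fell, at a median of 0.91. GLI1, a transcription factor that is also a target of the pathway, was at 1.72, 5.80, 0.734, 2.75 and 2.94 CPM in control and 15.5, 17.2, 14.1, 19.6 and 25.3 CPM in FR2 and rose by 2.72 ± 0.50 (edgeR adjusted p = 0.0068). PTCH1, the receptor and another target, was at 17.3, 30.3, 31.0, 33.6 and 25.9 CPM and 77.0, 66.4, 58.1, 85.5 and 57.2 CPM and rose by 1.32 ± 0.25 (adjusted p = 0.0082). In both genes each FR2 library lay above each control. DISP1, which releases the ligand, rose by 0.97 ± 0.23 and was not called without CONTROL_3, CONTROL_4 or FR2_1 (0.90 to 1.1). Library means of the list were 2.42 to 4.01 log2 CPM in control and 4.40 to 4.53 in FR2. Without CONTROL_5, 6 of the 15 were called higher. Stromal marker means were higher in FR2 as well, and their part in these values was not tested.

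Of 18 Notch genes 3 rose and 1 fell, at a median of 0.00. The receptors NOTCH1 and NOTCH4 rose by 0.95 ± 0.22 and 1.09 ± 0.31. Of the targets, HEYL was at 5.36, 8.94, 3.14, 8.24 and 10.7 CPM in control and 25.6, 37.8, 16.3, 28.0 and 24.0 CPM in FR2, all FR2 libraries above all controls, whereas HES1 fell at -1.76 ± 0.50 (edgeR adjusted p = 0.0475). NOTCH4 was not called without CONTROL_1, CONTROL_2, CONTROL_3, CONTROL_4 or any 1 FR2 library (0.96 to 1.35) and HES1 not without CONTROL_3, CONTROL_4 or any 1 FR2 library (-2.04 to -0.90). The list held 3 falls without CONTROL_5 or by DESeq2, 2 without CONTROL_1 and 0 by limma-voom.

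WNT4, a ligand active in uterine stroma, was the call among 27 Wnt genes (3.70%, against 5.55% of all genes tested). It was at 0.0209, 0.256, 0.206, 0.650 and 0.394 CPM in control and 2.71, 2.40, 1.03, 2.58 and 0.896 CPM in FR2, a rise of 2.64 ± 0.62 from a low level (edgeR adjusted p = 0.0196), not called without CONTROL_3, FR2_1 or FR2_4 (2.34 to 3.11). The list held 3 rises without CONTROL_4, 2 without CONTROL_1 or CONTROL_5, 4 by DESeq2 or limma-voom, and 1 fall without CONTROL_2 or CONTROL_5. Among 27 genes of the TGF-beta, activin and BMP families 2 were called (7.41%, near the 5.55% of all genes tested), at a median of 0.04. The ligand TGFB3 rose by 2.06 ± 0.51, from 2.45 to 10.6 CPM to 15.9 to 34.2 CPM, and the BMP target ID2 fell at -1.72 ± 0.38. TGFB3 was not called without CONTROL_3, CONTROL_4, FR2_1 or FR2_5 (1.87 to 2.43), and ID2 was at -1.23 ± 0.30 without CONTROL_3, still called. Without CONTROL_5 the list held 2 falls.

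Of 21 growth factor receptors and the ETV factors downstream of them 4 fell and 0 rose, at a median of -1.03. MET, the receptor of hepatocyte growth factor, was at 68.6, 243, 296, 74.9 and 16.8 CPM in control and 16.6, 28.4, 6.41, 18.6 and 14.9 CPM in FR2 (-3.04 ± 0.65, edgeR adjusted p = 0.0134). ETV4 fell at -3.35 ± 0.60 and FGFR3 at -1.92 ± 0.44, the latter not called without FR2_1 or FR2_5 (-2.17 to -1.54). In MET, ETV4 and FGFR3 CONTROL_5 lay within the range of the FR2 libraries. Without CONTROL_5, 9 of the 21 were called lower. The list median was -0.57 without CONTROL_3 and 0.08 without CONTROL_2, CONTROL_3 and CONTROL_4 together. It was -0.63 by limma-voom.

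Among 20 angiogenesis genes 2 were called (10%, against 5.55% of all genes tested), both higher. The vessel ligand ANGPT2 rose by 1.38 ± 0.32, from 2.81 to 4.45 CPM to 6.59 to 13.8 CPM, and the receptor NRP1 by 1.21 ± 0.32. ANGPT2 was not called without FR2_1 or FR2_2 (1.19 to 1.48), and NRP1 not without CONTROL_1, CONTROL_3, CONTROL_4, FR2_1, FR2_2 or FR2_4 (1.08 to 1.38). The list held 2 falls without CONTROL_1 or CONTROL_5 and 1 without CONTROL_2. VEGFA, the main growth factor of vessels, was at 49.2, 133, 238, 46.5 and 14.4 CPM in control and 31.5, 30.6, 14.5, 25.7 and 21.4 CPM in FR2 and did not pass (-1.96 ± 0.61, edgeR adjusted p = 0.0661).

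Of 23 collagens, proteoglycans and other matrix genes 3 rose and 0 fell, at a median of 0.70, and library means were 4.20 to 5.72 log2 CPM in control and 6.07 to 6.36 in FR2, without overlap. BGN, a small proteoglycan, was at 36.0, 43.5, 41.8, 102 and 112 CPM in control and 168, 180.4, 177, 148 and 167 CPM in FR2 (1.32 ± 0.34, edgeR adjusted p = 0.0298). THBS1, a matrix glycoprotein, rose by 1.54 ± 0.35 and COL15A1, a collagen next to basement membranes, by 1.19 ± 0.32. COL1A1 and COL3A1, the chains of the main fibrillar collagens, had log2 fold changes of 1.28 ± 0.49 and 1.36 ± 0.46 without a call (edgeR adjusted p = 0.132 and 0.0876). None of the 3 rises was called without CONTROL_3. BGN was not called without CONTROL_2, CONTROL_3 or any 1 FR2 library (1.17 to 1.57), THBS1 not without CONTROL_3 (1.27 to 1.66) and COL15A1 not without CONTROL_1, CONTROL_3, FR2_1, FR2_2, FR2_4 or FR2_5 (1.02 to 1.46). In the list of 21 proteases and inhibitors 3 were called (14.3%, against 5.55% of all genes tested), 1 higher and 2 lower. The rise was that of ACPP, given above (3.29). SERPINB5, a serpin of epithelia, fell at -8.05 ± 1.54 and PLAUR, the urokinase receptor, at -2.57 ± 0.68. SERPINB5 was at -4.66 ± 1.03 without CONTROL_3, still called, and PLAUR was not called without CONTROL_3, CONTROL_4 or any 1 FR2 library (-2.86 to -1.91). Without CONTROL_1 or CONTROL_5, 5 of the 21 were called lower.

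All 29 tested genes of antigen presentation had a negative log2 fold change, against 52.9% of all genes tested, and 10 fell, at a median of -0.85. The proteasome activator PSME2 was at 142, 62.3, 107, 127 and 124 CPM in control and 44.8, 51.9, 61.4, 55.8 and 55.8 CPM in FR2 (-1.06 ± 0.23, edgeR adjusted p = 0.0136). Its FR2 group lay just under the lowest control, CONTROL_2. PSMB9, another immunoproteasome subunit, fell at -2.15 ± 0.49 and was not called without FR2_1 (-2.39 to -1.91). CALR, a chaperone that loads class I molecules, was at 767, 746, 695, 969 and 697 CPM and 457, 503, 464, 501 and 459 CPM (-0.70 ± 0.14, adjusted p = 0.00878), without overlap. B2M, the light chain of class I molecules, and the class I gene SLA-3 fell at -1.53 ± 0.42 and -2.18 ± 0.58. SLA genes are near-identical, so the split of reads between them is uncertain. Library means of the list were 5.73 to 7.39 log2 CPM in control and 5.59 to 5.81 in FR2, highest in CONTROL_3 and CONTROL_4. With all 20 libraries limma-voom called 4 of the 29 lower and DESeq2 15. The count of falls was 3 without FR2_1, 4 without CONTROL_3 or any other FR2 library, 6 without CONTROL_4, and 2 without CONTROL_2, CONTROL_3 and CONTROL_4 together.

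Of 33 interferon response genes 2 fell (6.06%, against 3.98% of all genes tested), at a median of -0.88. ISG15, a ubiquitin-like protein induced by interferon, was at 39.8, 9.81, 59.5, 52.8 and 247 CPM in control and 8.64, 16.4, 7.33, 17.6 and 11.6 CPM in FR2 (-2.73 ± 0.75, edgeR adjusted p = 0.0411), with CONTROL_5 far above and CONTROL_2 within FR2. The transcription factor IRF1 fell at -1.52 ± 0.40. ISG15 was not called without CONTROL_3, CONTROL_5 or any 1 FR2 library (-3.02 to -1.74) nor IRF1 without CONTROL_3, CONTROL_4 or any 1 FR2 library (-1.72 to -1.02). Without CONTROL_2, 7 of the 33 were called lower, and 4 without CONTROL_1. With all 20 libraries limma-voom called 0 lower and DESeq2 10.

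Toll-like receptor genes split. TRIL rose, while TLR4, the receptor it assists, was at 1.76, 42.3, 94.9, 11.8 and 0.949 CPM in control and 3.41, 4.22, 3.39, 3.01 and 4.40 CPM in FR2 (-3.04 ± 0.83, edgeR adjusted p = 0.0385). CONTROL_2 and CONTROL_3 were high and CONTROL_1 and CONTROL_5 lay below every FR2 library. TLR4 was not called without CONTROL_2, CONTROL_3 or any 1 FR2 library (-3.35 to -1.95), and stood at 1.46 without CONTROL_2, CONTROL_3 and CONTROL_4. The adaptor TICAM1 fell at -1.40 ± 0.32, with CONTROL_5 alone beneath FR2, and was not called without FR2_1 or FR2_4 (-1.66 to -1.25). TRIL, TLR4 and TICAM1 were the calls among 20 genes (15%, against 5.55% of all genes tested).

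In each of the cytokine and tolerance lists 1 of 23 genes fell, a share of 4.35% that is near the 3.98% of all genes tested. IL1A, an inflammatory cytokine, was at 0.314, 20.2, 22.9, 3.84 and 0 CPM in control and 0.195, 0.0480, 0.479, 0.122 and 0 CPM in FR2 (-5.77 ± 1.5, edgeR adjusted p = 0.0313), and was not called without CONTROL_3, FR2_1, FR2_2, FR2_4 or FR2_5 (-6.66 to -5.11). The cytokine list held 5 falls and 2 rises without CONTROL_5, 4 falls without CONTROL_1 and 2 without CONTROL_2. It held 7 falls by DESeq2 and 0 by limma-voom. LGALS9, a galectin that restrains T cells, fell at -1.72 ± 0.50 without overlap (adjusted p = 0.0498), and was not called without CONTROL_1, CONTROL_3, CONTROL_4 or any 1 FR2 library (-1.86 to -1.51).

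Of 19 mucosal defence genes 8 fell, at the lowest median of the 44 lists, -2.80. VNN2, a vanin with pantetheinase activity, was at 16.9, 114, 157, 1423 and 0.0926 CPM in control and 0.217, 0.480, 0.479, 0.437 and 0.717 CPM in FR2 (-9.51 ± 1.60, edgeR adjusted p = 0.00592), and CONTROL_5 was below FR2. The membrane mucin MUC4 was at 26.9, 33.7, 879, 484 and 0.695 CPM and 0.912, 2.16, 2.41, 0.778 and 4.80 CPM (-7.00 ± 1.35, adjusted p = 0.0082), with CONTROL_5 again lowest. VNN1 and the iron-trapping lipocalin LCN2 fell at -9.29 ± 1.89 and -5.43 ± 1.26, the latter not called without CONTROL_4, FR2_1, FR2_2 or FR2_4 (-6.24 to -3.24). In all 8 genes the groups overlapped. With all 20 libraries limma-voom called 0 of the 19 lower and DESeq2 8. The count was 3 without FR2_1, FR2_2 or FR2_4 and 4 without CONTROL_4 or FR2_5, and 0 were called without CONTROL_2, CONTROL_3 and CONTROL_4 together. Of 23 complement and acute phase genes 3 fell (13%, against 3.98% of all genes tested). They were CFD, CLU (-2.33 ± 0.61) and SAA3 (-6.88 ± 1.73). CLU, a secreted chaperone, was not called without CONTROL_3, CONTROL_4, FR2_1, FR2_2, FR2_4 or FR2_5 (-2.60 to -1.17), and SAA3, an acute phase protein, not without CONTROL_3, CONTROL_4, FR2_1, FR2_2, FR2_3 or FR2_4 (-8.45 to -5.15). Without CONTROL_2 or CONTROL_5, 5 of the 23 were called lower.

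Chaperones of the endoplasmic reticulum, which fold secreted and membrane proteins, gave small falls with narrow error. Of 22, 8 fell and 0 rose, at a median of -0.60. HSPA5, the main chaperone of this organelle, was at 624, 742, 593, 751 and 397 CPM in control and 304, 392, 322, 334 and 300.2 CPM in FR2 (-0.91 ± 0.17, edgeR adjusted p = 0.00654). The highest FR2 library, FR2_2, was just below the lowest control, CONTROL_5. MANF, a secreted protein of the same response, was at 132, 106, 117, 125 and 153 CPM and 65.0, 67.9, 70.2, 73.7 and 66.5 CPM (-0.88 ± 0.16, adjusted p = 0.00653), and DNAJB11, a partner of HSPA5, fell at -0.76 ± 0.15. These 3 and CALR were called whichever library was left out, and the count of 8 moved by less than 1.5 times when 1 library was left out. It was 3 without CONTROL_2, CONTROL_3 and CONTROL_4 together and 4 without CONTROL_4, FR1_1, FR1_4, FR2_3 and FR3_4. Epithelial marker means were lower in FR2 beside these lists, and their part was not tested.

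Immediate early and heat shock genes, which also respond to how tissue is handled after death, held 6 falls among 25, at a median of -1.1. HSPA6, an inducible heat shock protein, was at 2.09, 47.7, 232, 40.9 and 1.83 CPM in control and 1.52, 2.16, 1.47, 0.656 and 2.31 CPM in FR2 (-5.32 ± 0.99, edgeR adjusted p = 0.00744), and at -3.84 ± 0.79 without CONTROL_3, still called. CONTROL_2, CONTROL_3 and CONTROL_4 were high, and CONTROL_1 and CONTROL_5 lay at the FR2 level. DNAJB1, a co-chaperone, was at 72.7 to 464 CPM and 50.3 to 56.4 CPM (-1.71 ± 0.36), and at -0.98 ± 0.19 without CONTROL_3, still called. IER3 and IER2, early response genes, fell at -5.20 ± 1.17 and -1.1 ± 0.31. IER3 was not called without CONTROL_3 or FR2_1 (-5.51 to -3.93), nor IER2 without CONTROL_2, CONTROL_3 or any 1 FR2 library (-1.26 to -0.82). Library means of the list ran from 3.98 to 7.14 log2 CPM in control and 4.38 to 5.40 in FR2. The list median was -0.52 without CONTROL_3 and 0.20 without CONTROL_2, CONTROL_3 and CONTROL_4 together. With all 20 libraries limma-voom called 1 of the 25 lower and DESeq2 12. The count of 6 went to 2 without CONTROL_3 or FR2_1, 3 without any other FR2 library, 10 without CONTROL_5, 12 without CONTROL_1 and 0 without CONTROL_2, CONTROL_3 and CONTROL_4 together. The part of tissue handling in these and other falls was not tested.

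Of 18 tested oxidative phosphorylation genes 5 fell, at a median of -0.53. SDHB, the iron-sulfur subunit of complex II, was at 119, 91.0, 135, 64.7 and 81.8 CPM in control and 56.0, 61.1, 47.7, 58.1 and 54.2 CPM in FR2 (-0.83 ± 0.16, edgeR adjusted p = 0.00927). NDUFV1, a subunit of complex I, fell at -0.82 ± 0.17, COX5B, of cytochrome oxidase, at -1.09 ± 0.23 and NDUFA1, of complex I, at -0.92 ± 0.22. None of these 4 overlapped between groups. NDUFA1 was not called without FR2_1, FR2_2 or FR2_4. Over the 10 runs without 1 library it was at -1.02 to -0.59, the latter without CONTROL_5 and still called. The count was 3 without FR2_1, FR2_2 or FR2_4, 8 without CONTROL_2, 9 without CONTROL_4 and 9 without CONTROL_2, CONTROL_3 and CONTROL_4 together.

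Of 26 genes of nutrient transport and lipid uptake 3 fell and 2 rose. SLC2A1, the glucose transporter, was at 73.7, 143, 3391, 80.9 and 54.4 CPM in control and 59.4, 72.4, 32.4, 53.2 and 46.8 CPM in FR2 (-3.82 ± 0.94, edgeR adjusted p = 0.0246). CONTROL_3 alone was high, and without it the value was -0.75 ± 0.32, not called. FABP3, which binds fatty acids, fell at -3.52 ± 0.87. FABP3 was not called without CONTROL_3, FR2_1, FR2_2, FR2_4 or FR2_5 (-3.81 to -2.03), nor was SLC2A1 without any 1 FR2 library. SLC38A1, a glutamine transporter, rose by 1.34 ± 0.33 without overlap, and was not called without CONTROL_4, FR2_1, FR2_2, FR2_3 or FR2_4 (1.12 to 1.75). TWIST2, a transcription factor of mesenchyme, rose by 1.01 ± 0.27 as the call among 24 homeobox and uterine transcription factors (4.17%, against 5.55% of all genes tested), and was not called without CONTROL_1, CONTROL_2, CONTROL_3, FR2_1, FR2_2, FR2_4 or FR2_5 (0.82 to 1.23). Without CONTROL_5, 3 members of that list were called lower.

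**Figure D4:**
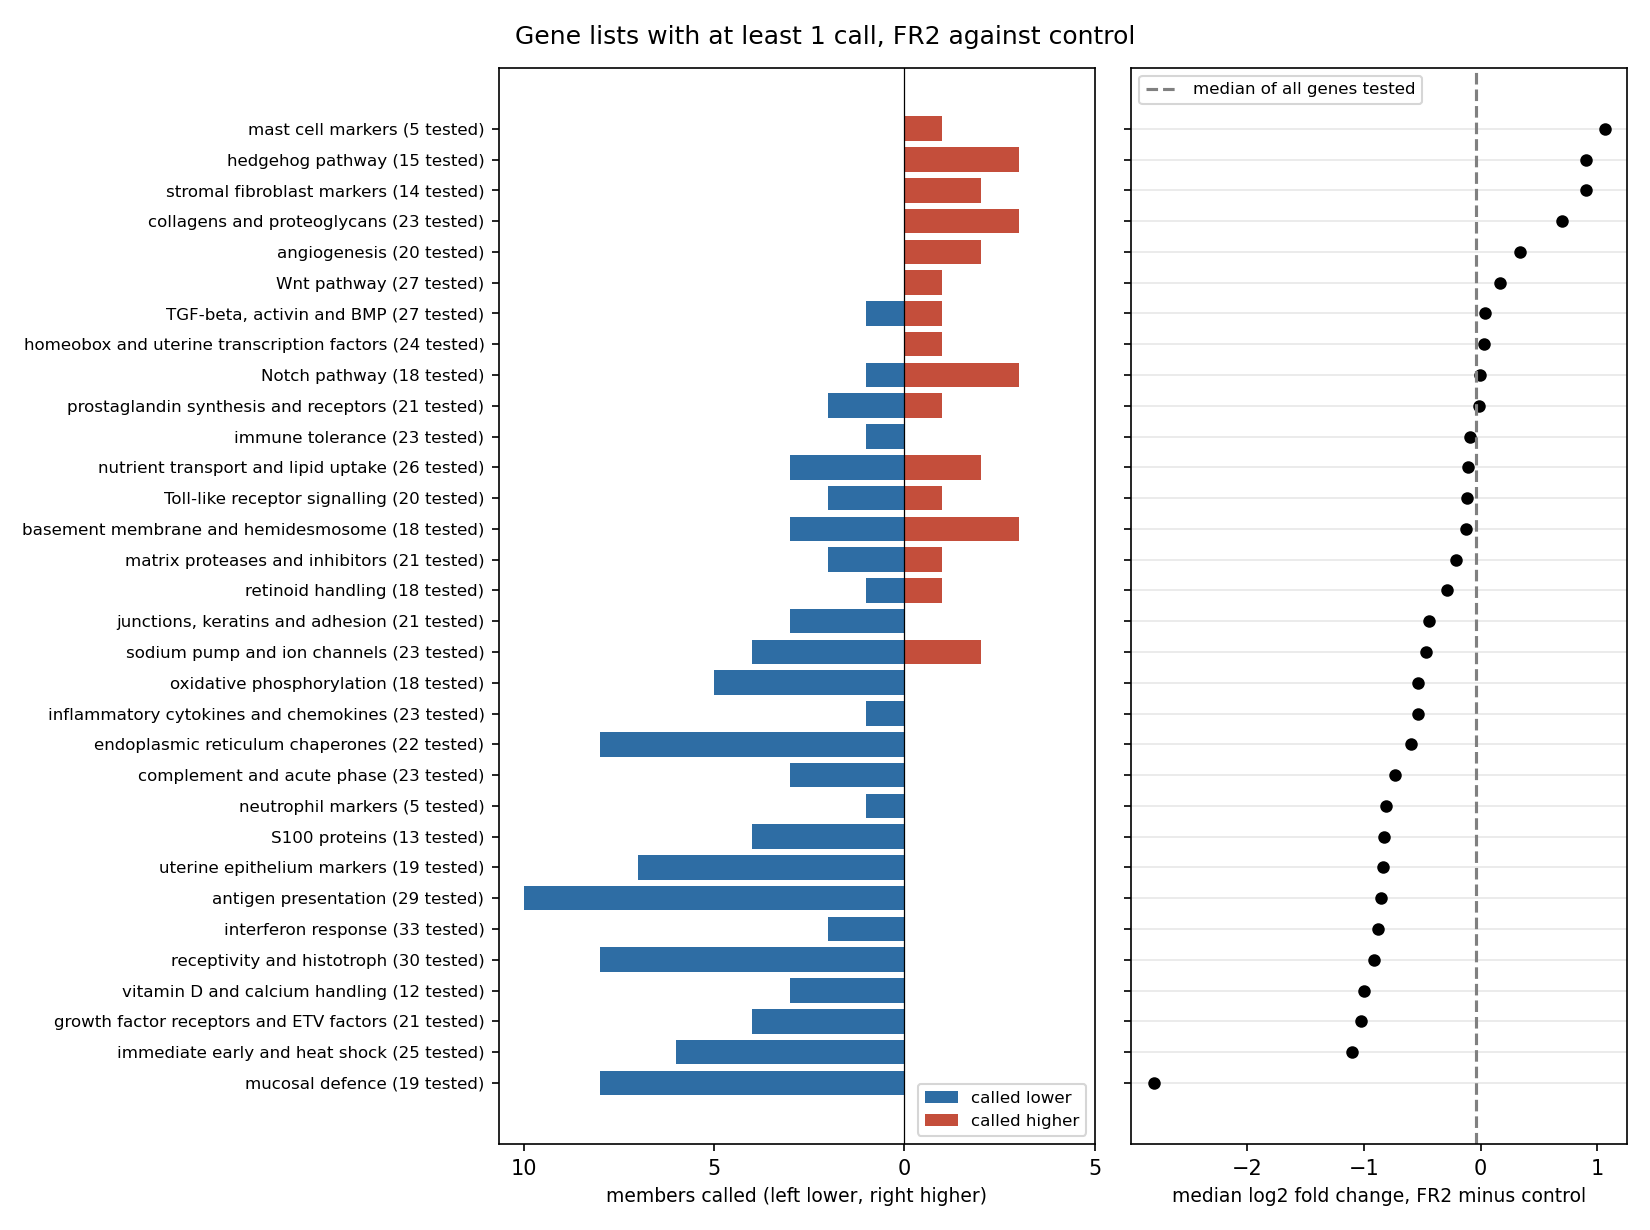
Left, the number of tested members called lower (blue) or higher (red) in FR2 for each list with at least 1 call. Right, the median log2 fold change of the tested members of each list, with the median of all 17745 genes, -0.04, as a dashed line. Antigen presentation holds the most falls, 10 of 29, and mucosal defence the lowest median, -2.80.

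The last question was whether FR2 differed from the other fractions. Against FR1, 0 genes were called by edgeR (0% of 17745), with 130 at an unadjusted p below 0.05 (0.733%), and DESeq2 called 0 as well. FR2 and FR1 libraries did not overlap in 127 genes (0.716%). Against FR3, 1 gene was called (0.00564%), with 1307 at an unadjusted p below 0.05 (7.37%), while DESeq2 called 21. FR2 and FR3 libraries did not overlap in 579 genes (3.26%). Over the 985 genes called against control, the median absolute log2 difference was 0.20 between FR2 and FR1 and 0.32 between FR2 and FR3, at a median SE of 0.31 for each. These genes were chosen with the FR2 libraries, which all of these comparisons share.

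The gene that differed from FR3 was GPCPD1, an enzyme that releases choline from glycerophosphocholine. It was at 96.4, 82.0, 136, 109 and 93.9 CPM in FR2, 48.7, 45.6, 34.1, 32.8 and 56.6 CPM in control, 63.7, 52.3, 50.1, 85.5 and 38.4 CPM in FR1 and 28.0, 36.0, 42.1, 42.2 and 41.2 CPM in FR3. FR2 lay above every control and FR3 library, and FR1_4 was the 1 FR1 library to reach the FR2 range. Against control GPCPD1 rose by 1.25 ± 0.21 (edgeR adjusted p = 0.00592), and against FR3 it was higher by 1.45 ± 0.21 (adjusted p = 0.0278). The difference from FR1 was 0.83 ± 0.21 and did not pass (adjusted p = 1). FR1 and FR3 minus control, which use the same controls, were at 0.41 ± 0.21 and -0.20 ± 0.21. The call against FR3 was lost without FR2_1, FR2_3, FR2_4, FR2_5, FR3_1, FR3_3, FR3_4 or FR3_5 in turn.

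For the other genes of smallest p the 3 inseminated groups stood side by side as follows. CHSY1 was at 31.5, 50.4, 42.5, 47.0 and 40.2 CPM in FR1 and 35.4, 34.7, 37.4, 31.2 and 32.4 CPM in FR3. All FR3 libraries were beneath FR2, while FR1 overlapped it through FR1_2 and FR1_4, with differences of 0.42 ± 0.16 and 0.73 ± 0.16 (edgeR adjusted p = 1 and 0.488). KRT18 was at 115, 129, 181, 114 and 131 CPM in FR1 and 182, 178, 224, 110.2 and 236 CPM in FR3, overlapping FR2 in both. PSMB10 was at 12.2, 14.8, 27.7, 15.2 and 24.3 CPM in FR1 and 21.1, 20.0, 34.7, 25.3 and 30.4 CPM in FR3, and its difference between FR2 and FR3 was -0.77 ± 0.30 (adjusted p = 0.666). A p that misses the threshold does not show that the fractions acted alike.

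**Figure D5:**
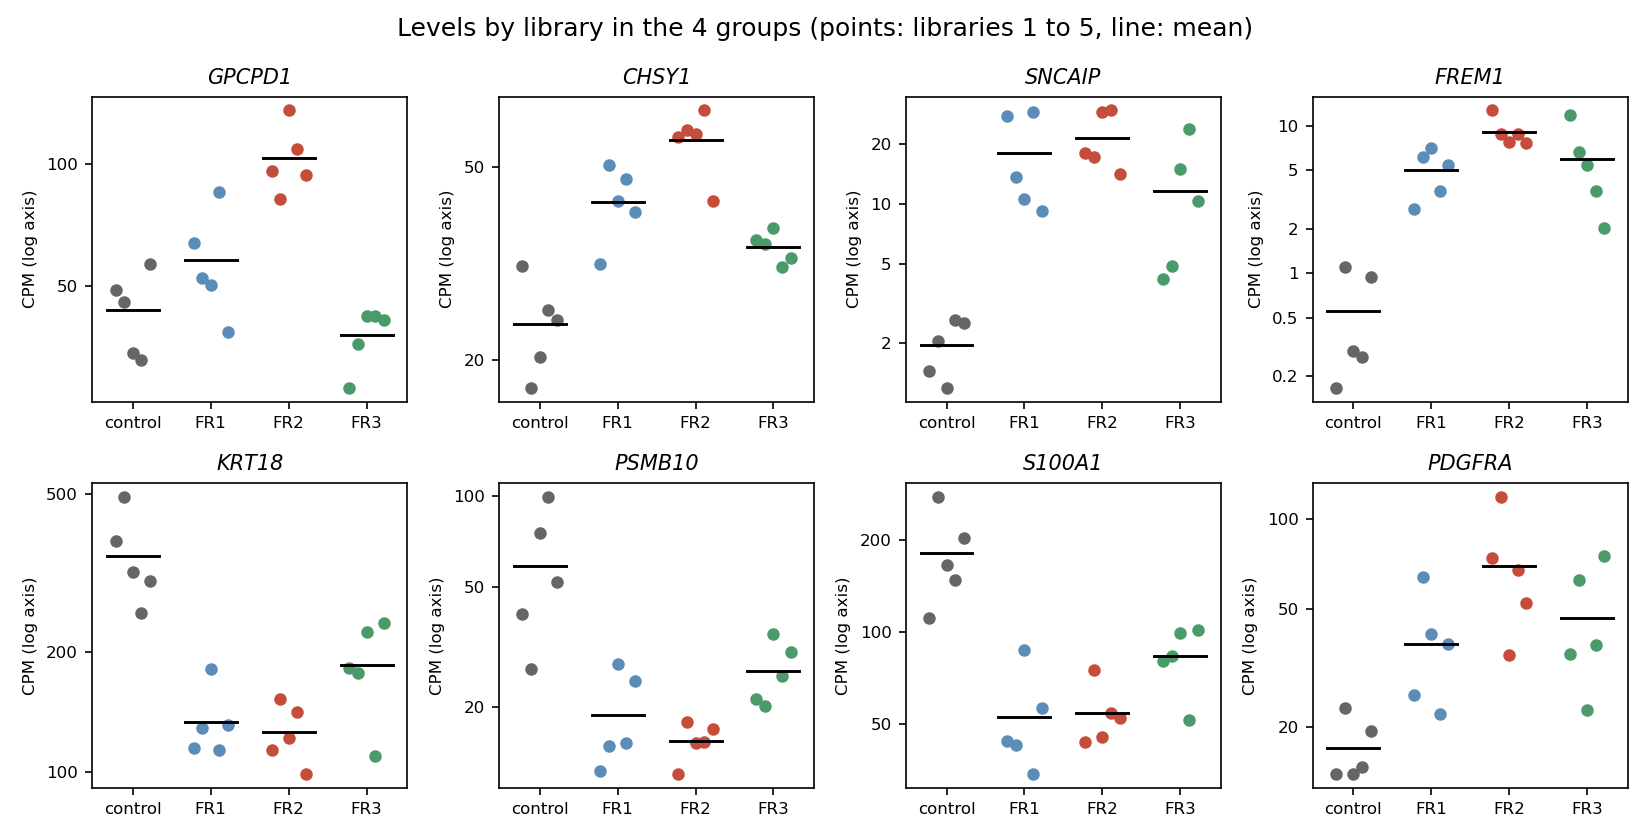
Levels of 8 genes in the 5 libraries of each group as TMM-scaled CPM on logarithmic y axes, with a line at each group mean. GPCPD1 is raised in FR2 beside control and FR3, whereas for FREM1, SNCAIP, KRT18 and PSMB10 the 3 inseminated groups all lie on the same side of the control mean.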

How the data were processed

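Uterine poly-A RNA of 20 sows was sequenced in pairs, 1 library per sow, all under 1 batch label. The deposited values are estimated counts per gene, which the authors made with CASAVA, STAR 2.7.9a and Salmon 1.10.1, per the submitters' processing notes. Genome build, annotation and strand setting are unknown. Both strand-marking and unmarked second strands are described for the libraries, so overlapping antisense genes cannot be told apart. Near-identical SLA genes can share reads. Read sharing within the S100, mucin and vanin families was not tested. Of the values 87.2% were whole, and all were rounded. The 24 rows without a gene name, up to 0.0133% of a library, were left out, and 30328 of 30345 gene identifiers matched by symbol a RefSeq table of Sscrofa11.1, used for names only. Where a symbol had several rows, the one with the highest total was used.

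Counts were tested with edgeR 4.0.16 in R 4.3.3 (quasi-likelihood, 2-sided, TMM factors, filterByExpr) in 1 fit of 20 libraries with 16 residual degrees of freedom, and p-values were adjusted by the Benjamini-Hochberg method over 17745 genes. Sows are separate animals, so p-values are set against the spread between sows, as an estimate pooled over the 4 groups. That spread differed by group, with a median standard deviation of log2 CPM of 0.691 in control, 0.397 in FR1, 0.322 in FR2 and 0.521 in FR3. The pooled estimate is therefore not that of the control sows, which varied most, and p-values for FR2 against control may be too small. Each SE was taken as the absolute log2 fold change over the square root of its F statistic. The fitted value compares mean counts, so 1 high library can set it. The steps were tested on simulated counts with 200 changed genes. Each simulated gene had the same spread in all 4 groups. That test therefore cannot show how the unequal spread of the real groups affects the p-values. Alternatives used DESeq2 1.42.0, limma 3.58.1, other filters and thresholds, and fewer libraries.

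The comparison, the 44 lists (889 members, 859 in the table, 801 tested) and the rules were chosen with earlier results of these data known, so lists are described by counts and medians, with no set test. Named genes (123) are the 12 rises and 12 falls of smallest p with an absolute log2 change of at least 1 and no overlap, up to 4 called members per list or, with no call, its member of smallest p, a panel of 18 genes, and genes called between fractions. EPCAM, NPNT, NID1, COL1A1, COL3A1, B2M and SLA-3 were added after their values were seen. Of the 123, 4 are not reported here. Promoter sequences were not analysed here.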

Additional observations from a re-analysis of the deposited data

Results flagged for a closer look

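Dixon's test for 1 library standing apart was run on the control and the FR2 libraries of each of the 123 named genes, 246 groups in all, and it marked 15, where chance marks about 1 in 20. The value, computed on log2 CPM with a prior count of 2, is the gap to the nearest library as a share of the group's range, and 0.71 is the limit for 5 libraries. In FR2, 1 library stood high for FREM1 (0.732, FR2_1) and PGR (0.784, FR2_3). In the same group 1 library stood low for CLDN7 (0.714, FR2_1), DES (0.754, FR2_4), TEAD4 (0.717, FR2_5), ACP5 (0.722, FR2_3), ABCC4 (0.820, FR2_3) and DNAJB1 (0.746, FR2_1). TEAD4, a transcription factor of the early embryo list, was at 1.81 CPM in FR2_5 and did not pass against control (-1.68 ± 0.50, edgeR adjusted p = 0.0543).

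In control, CONTROL_5 stood low for MPZL2 (0.731), S100A2 (0.932) and TICAM1 (0.864) and high for NDUFA1 (0.738). CONTROL_1 stood low for ERG (0.740), a factor of endothelium, and high for S100A6 (0.879), at 1772 CPM. CONTROL_3 stood high for SLC2A1 (0.765), at 3391 CPM.

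GPCPD1 differed between FR2 and FR3 by a test of the difference itself, edgeR adjusted p = 0.0278, with all 5 FR2 libraries above all 5 FR3 libraries.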

How the results depend on the processing

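No paired analysis was possible because the sows are numbered from 1 to 20 with no number shared between groups, and the columns carry no sow number. Counts for FR2 against control are given as called, higher and lower, the reported values being 985, 278 and 707. DESeq2 gave 2125, 572 and 1553, limma-voom 705, 389 and 316, and limma-voom with a spread per group 358, 132 and 226. By limma-voom the sodium pump list held 1 fall, and the protease, Toll-like receptor and nutrient transport lists held 0. DESeq2 gave these lists 7, 5, 2 and 2 falls. An adjusted p below 0.01 gave 137, 46 and 91, and one below 0.10 gave 1918, 617 and 1301. Only the 10 libraries gave 1, 1 and 0 by edgeR, with 3196 genes at an unadjusted p below 0.05. The muscle covariate gave 1498, 589 and 909. Without CONTROL_2, CONTROL_3 and CONTROL_4 the counts were 420, 130 and 290, and without CONTROL_4, FR1_1, FR1_4, FR2_3 and FR3_4 they were 414, 162 and 252. Among alternatives chosen after seeing the data, the 10 libraries gave 2, 2 and 0 by limma-voom, 0, 0 and 0 with a spread per group (2954 at an unadjusted p below 0.05), 1482, 434 and 1048 by DESeq2 and 511, 143 and 368 by edgeR at an adjusted p below 0.10. The exact rank-sum test gave 0, 0 and 0 (2203 at an unadjusted p below 0.05), and leaving out CONTROL_3 and CONTROL_4 gave 240, 70 and 170. Leaving out 1 library gave 309 to 1881 called, 108 to 655 higher and 201 to 1226 lower, and 974 to 1906 genes with no overlap. FR2 against FR1 stayed at 0 calls in every setting run. FR2 against FR3 gave 21 by DESeq2, 0 at an adjusted p below 0.01, 0 in each of the 3 runs without several libraries, and 0 to 1 leaving out 1 library.

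The sign of a named gene turned as follows, none of them called. Without CONTROL_2, CONTROL_3 and CONTROL_4: DES 0.88, PLAUR 0.23, TLR4 1.46, IL1A 0.16, SAA3 0.11, IER3 0.74, OXTR 1.81, STC1 2.68 and FGF7 1.35. Without CONTROL_3 and CONTROL_4 PLAUR was at 0.13. By limma-voom HBM was at 0.61, CRISP2 at 0.33, PGR at 0.0453 and OXTR at 0.14, and with a spread per group at 0.61, 0.33, 0.0438 and 0.14. Leaving out 1 library put HBM at -1.78 (FR2_3) to 0.49 (CONTROL_5), PGR at -0.71 (CONTROL_3) to 0.0877 (CONTROL_4) and OXTR at -0.76 (CONTROL_5) to 0.93 (CONTROL_2). List medians turned as well without CONTROL_2, CONTROL_3 and CONTROL_4. Among them were smooth muscle at 0.88, cytokines at 0.38, immediate early genes at 0.20 and growth factor receptors at 0.08. The cause of these changes was not tested. Of 105 named genes that were called, 63 were called in all 10 runs without 1 library. Genes near 1 CPM rest on few reads, which limits their folds.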

Other observations

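Lists without a call gave these values. Of 12 sperm and testis genes 4 had enough counts to be tested, and the one of smallest p, CRISP2, a protein of the acrosome, was at 0, 0.562, 0, 0 and 3.94 CPM in control and 0.217, 0.0720, 0, 0.170 and 0.219 CPM in FR2 (-2.71 ± 1.61, edgeR adjusted p = 0.344). Its highest library was a control, CONTROL_5. Of 12 early embryo genes 7 were tested, at a median log2 fold change of -0.33, with 1 fall without CONTROL_1 or CONTROL_5. HBM, a haemoglobin chain, was at 0 to 12.7 CPM in control and 0.316 to 2.16 CPM in FR2 (-1.45 ± 1.1, adjusted p = 0.481).

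Of 11 tested genes of motile cilia CCDC40 had the smallest p (0.62 ± 0.25, edgeR adjusted p = 0.145), and the list's median was 0.06. The 28 cell cycle genes had a median of -0.15, with library means of 1.26 to 5.14 log2 CPM in control and 3.05 to 4.59 in FR2, and CCND2, a cyclin of early cell cycle, was at 1.0 ± 0.36 (adjusted p = 0.113). The sign of the cell cycle median was not settled. It was 0.61 by limma-voom, 0.66 without CONTROL_1 and -0.72 without CONTROL_2, CONTROL_3 and CONTROL_4 together. Without CONTROL_4, 1 cell cycle gene was called higher. The 21 sterol and fatty acid synthesis genes had a median of 0.34, and 0 of them were called. Without CONTROL_1, 3 were called higher and the median was 0.65, and without CONTROL_4, 1 was called higher and 1 lower.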
